A study of Homo sapiens and synthetic construct with 52 samples.

Results

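The non-targeting control guides of the genome-wide CRISPRi and CRISPRa libraries are guides that were designed to match no site in the human genome. Members were taken by name, as every row whose name starts with non-targeting, which gave 1895 of 103074 guides in the CRISPRi library and 1895 of 101250 guides in the CRISPRa library. In CRISPRi, a catalytically dead Cas9 fused to a KRAB repressor domain is led by a guide RNA to a promoter and silences that gene, and in CRISPRa a dead Cas9 with an activating domain raises transcription instead. Cells that carry a guide against a gene they need divide less, so that guide is lost from the pool as the culture grows. A control guide should give the cell no advantage or disadvantage, and the spread of the control guides therefore sets the null distribution against which targeting guides are scored. No control guide has a genomic position or gene annotation, and the tables name these guides by number without a sequence, so no sequence is printed here.

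The study recloned the CRISPRi and CRISPRa libraries (LGR) and set them beside the older versions of the same libraries (legacy). For sequencing, LGR and legacy cell samples were amplified with different reverse primers and annealing temperatures and cleaned with different bead ratios. Library and preparation therefore cannot be told apart in any comparison of LGR with legacy cell samples. Plasmid pools were sequenced without replicates. All cell samples came from K562, a chronic myeloid leukemia line, carrying dCas9-KRAB as a pooled line sorted for BFP rather than a clone, and all carried a CRISPRi library. A titration placed the LGR or the legacy library in cells at 10-, 50-, 100- or 200-fold coverage, that is, that many cells per guide, with 2 samples each. Survival screens with the LGR library at 1000-fold coverage (1 sample at the start, T0, and 3 at the end, Tf) and 100-fold coverage (2 T0 and 4 Tf samples) were grown for 7 days without drug. Dasatinib screens at 100-fold coverage were run with both libraries, each transduced once and then split, so that the 2 T0 samples, the 2 DMSO samples (0.01% DMSO) and the 2 DASA samples (0.75 nM dasatinib, a BCR-ABL and SRC family kinase inhibitor) of a library are technical replicates. The drug or DMSO was given for 72 h and followed by 6 days of recovery. The p-values below therefore measure the spread between samples of that kind.

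Total counts ran from 15739255 to 19844033 in the dasatinib screens, from 17582032 to 51399251 in the titration, from 47678549 to 54678272 at 100-fold survival and from 105684438 to 111002750 at 1000-fold survival. The mean control guide thus held between 141 counts in a dasatinib-treated sample and 948 in a 1000-fold Tf sample. No pair of replicates differed by as little as counting noise, since the chi-square per guide was between 2.75 and 86.7 over all pairs. As a check of the screens, guides against cytosolic ribosomal proteins (382 guides, 73 genes), which every dividing cell needs, had a median log2 ratio of −2.03 ± 0.0499 (SD, n = 3 Tf samples) in the 1000-fold screen. At 100-fold survival it was −2.10. In DMSO against T0 it was −0.905 in LGR and −1.06 in legacy, but over only the 260 and 247 of these guides with enough counts. The fits described below kept 378 and 375 of them, with medians of −1.69 in LGR and −1.99 in legacy. In the same kind of fit, over 382 guides, the survival screens gave −2.08 at 1000-fold and −2.09 at 100-fold.

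In the plasmid pools, the control guides of the LGR library were more even than those of the legacy library. The 90/10 skew is the count of the guide at the 90th percentile divided by that at the 10th. Over the control guides it was 1.61 in the LGR CRISPRi plasmid against 5.36 in its legacy counterpart. Among the CRISPRa pools, the LGR plasmid had a skew of 1.87, or 1.76 when read on a HiSeq in place of a NextSeq, and the legacy plasmid had 2.93. Over the targeting guides the 5 values, in this order, were 1.93, 5.11, 1.98, 1.80 and 2.79, so by this skew the controls were the more even class in the LGR pools and the less even class in the legacy pools. By the coefficient of variation they were the more even class in the legacy pools too, at 0.573 against 0.581 for CRISPRi and 0.393 against 0.415 for CRISPRa. Within 2-fold of the control mean lay 99.8% of the control guides of the LGR CRISPRi plasmid and 75.1% of those of the legacy one. Each value rests on a single plasmid library, so these differences have no replicate check, and the LGR CRISPRi plasmid is given by its HiSeq counts, since the NextSeq table of that pool numbers its rows without naming guides and was not used here.

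The control guides also differed in their mean level relative to the targeting guides. The mean control count divided by the mean targeting count was 0.840 in the LGR CRISPRi plasmid and 1.01 in the legacy CRISPRi plasmid, and 0.974, 0.927 and 0.961 in the LGR CRISPRa (NextSeq), LGR CRISPRa (HiSeq) and legacy CRISPRa plasmids. The low control level of the LGR CRISPRi library was found again in cells, where the 8 LGR titration samples lay between 0.833 and 0.861 and the 8 legacy titration samples between 1.001 and 1.008, with no overlap. Across the 1895 control guides, the counts of the LGR and legacy CRISPRi plasmids had a Spearman correlation of 0.0520, so the rank of a guide in one pool said little about its rank in the other. The LGR CRISPRi and LGR CRISPRa plasmids, whose control guides carry the same names, had a Spearman correlation of −0.0195, and the names alone do not show that the sequences are shared. These correlations are descriptions over guides, which share a library and a sequencing run.

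Single control guides at the ends of the distribution differed between pools. In the LGR CRISPRi plasmid the 3 highest were non-targeting_01465, non-targeting_01024 and non-targeting_00509, with 2144, 2025 and 1945 counts, and the 3 lowest were non-targeting_01538, non-targeting_00309 and non-targeting_00508, with 581, 595 and 601 counts. The whole range of that pool thus ran from 0.482 to 1.78 times the control mean, and no control was at 0. In the legacy CRISPRi plasmid the 3 highest were non-targeting_01585, non-targeting_01696 and non-targeting_01835, with 7570, 7079 and 6555 counts, or 4.53, 4.24 and 3.92 times the control mean. The lowest above 0 there were non-targeting_00864 and non-targeting_01714, with 1 count each, and non-targeting_00668 with 5. In the LGR CRISPRa plasmid non-targeting_00964 was the lowest control above 0 on both instruments, with 13 counts on the NextSeq and 42 on the HiSeq, or 0.0286 and 0.0264 times the control mean. The highest were non-targeting_01222, non-targeting_00069 and non-targeting_01476 on the NextSeq, with 862, 827 and 824 counts, and non-targeting_00271, non-targeting_00473 and non-targeting_01314 on the HiSeq, with 2997, 2716 and 2696. In the legacy CRISPRa plasmid the highest were non-targeting_00094, non-targeting_00116 and non-targeting_00240, with 4382, 3866 and 3760 counts, and the lowest above 0 were non-targeting_00928, non-targeting_00714 and non-targeting_00996, with 1, 133 and 139.

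A few control guides were counted on the HiSeq and hardly at all on the NextSeq. Counted here are guides with at least 100 HiSeq counts and no more than 2 counts in any NextSeq sample, which gave 5 of 1895 controls (0.264%) and 64 of 101179 targeting guides (0.0633%) of the CRISPRi library. The 5 were non-targeting_00123, non-targeting_00864, non-targeting_01096, non-targeting_01385 and non-targeting_01710, with 936, 894, 1026, 1082 and 1218 HiSeq counts. Over all 39 NextSeq samples of that library together, they held 0, 1, 2, 0 and 0 counts. These 5 guides are the 5 controls at 0 in most LGR cell samples, and they passed the filter on low counts in none of the 8 fits described below. In the CRISPRa library 4 controls (0.211%) and 200 of 99355 targeting guides (0.201%) met the same rule. They were non-targeting_00323, non-targeting_00928, non-targeting_01141 and non-targeting_01504, with 925, 2235, 1975 and 1682 HiSeq counts against 0, 1, 0 and 0 over both NextSeq plasmids. The CRISPRi comparison sets a plasmid read on the HiSeq against mostly cell samples read on the NextSeq, whereas the LGR CRISPRa plasmid was read on both, and the sequences of these guides were not analysed here.

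The legacy CRISPRi plasmid lacked further control guides, and these fell in a stretch of the numbering. Of 19 controls at 0 in that pool, 4 belonged to the 5 just named, and the other 15 had numbers between 1361 and 1891. Those 15 guides had between 707 and 1653 counts in the LGR plasmid, and summed over all 14 legacy cell samples they held 18 counts, never more than 2 in a sample. In the 24 LGR cell samples their counts were all above 0, except for non-targeting_01787 in a 10-fold titration sample. The unevenness followed the same numbering, which was seen in the data before it was described and is given without a test. In steps of 300 numbers, the 90/10 skew of the legacy CRISPRi plasmid was 4.88, 3.40, 3.50, 4.06, 6.69 and 13.1, and 9.87 over the last 95 guides, whereas in the LGR CRISPRi plasmid it stayed between 1.56 and 1.66. In the legacy CRISPRa plasmid it was between 2.48 and 3.19 in all steps. The pattern of the legacy plasmid was carried into cells, where the legacy T0 samples A and B of the dasatinib screen had skews of 3.41 and 3.69 over numbers 300 to 599 and of 15.99 and 15.28 over numbers 1500 to 1799.

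In cells, the titration asked how few cells per guide keep a library even. For the LGR library the skew of the control guides was 1.91 and 1.91 in the 200-fold samples, 2.01 and 2.01 at 100-fold and 2.11 and 1.99 at 50-fold, and it rose to 4.73 and 4.99 at 10-fold. For the legacy library it was 5.57 and 5.72 at 200-fold, 5.57 and 5.65 at 100-fold and 5.64 and 5.73 at 50-fold, and 22.4 and 20.7 at 10-fold. The targeting guides were about as uneven at 10-fold, with skews of 5.05 and 4.86 for LGR and 21.8 and 17.3 for legacy. Between 50- and 200-fold the skew of the legacy controls moved within its duplicates, and every legacy sample lay above every LGR sample of the same coverage. The mean log2 skew was 1.67 higher in the legacy library, a ratio of 3.17 (two-sided exact permutation test over 16 samples within coverages, p = 0.00154, the smallest the 1296 arrangements allow). The study describes the titration duplicates as technical in one place and as biological in another, so this p may measure technical spread only. By coverage the ratio was 4.44 at 10-fold, 2.78 at 50-fold, 2.79 at 100-fold and 2.95 at 200-fold.

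Single control guides were lost and amplified at 10-fold coverage. At 0 were 13 and 10 controls in the LGR 10-fold samples and 120 and 102 in the legacy ones, against 5 in every LGR sample and 15 to 23 in the legacy samples of higher coverage. The loss was shared by the targeting guides. In the LGR 10-fold samples 0.686 and 0.528% of controls and 0.450 and 0.325% of targeting guides were at 0. In the legacy ones these were 6.33 and 5.38% of controls and 6.24 and 4.81% of targeting guides. Below 10% of the control mean were 23 and 24 LGR controls and 188 and 183 legacy controls at 10-fold, against 6 and 55 to 58 at the other coverages. The duplicates at 10-fold differed far beyond counting noise. The log2 ratio between duplicates had a robust SD (from the median absolute deviation, over control guides with at least 50 counts in either sample) of 1.11 for LGR and 1.57 for legacy at 10-fold, where counting noise alone gives 0.153 and 0.157. At 50-, 100- and 200-fold it was 0.307, 0.282 and 0.236 for LGR and 0.336, 0.263 and 0.220 for legacy, still above the counting noise of 0.0954 to 0.171. The highest control of the first legacy 10-fold sample, non-targeting_01024, singled out after its values were seen, held 4195 counts there, which is 163 CPM (the count scaled to an equal library total, as for all CPM values below), 16.8 times the control mean, and 248 counts or 10.6 CPM in its duplicate. At 50-fold and above the highest legacy control was non-targeting_01585 in 5 of the 6 samples, at 44.0 to 51.6 CPM, which is the guide that was also highest in the legacy plasmid at 44.4 CPM.

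After growth without drug, the control guides took a larger share of all counts. In the 1000-fold screen the share was 1.53% at T0 and 1.61 to 1.62% in the 3 Tf samples. At 100-fold it was 1.52 and 1.53% at T0 and 1.63 to 1.64% in the 4 Tf samples. In the dasatinib screens it was 1.57 and 1.58% at T0 and 1.65 and 1.65% in DMSO for LGR, and 1.87 and 1.87% at T0 and 1.98 and 1.96% in DMSO for legacy. The grown samples lay above T0 without overlap in all 4 screens, by a factor of 1.05 to 1.07, although the exact permutation tests could not pass 0.05 in designs of this size (two-sided p = 0.25, 0.0667, 0.333 and 0.333, each the smallest its design allows). The median control guide moved by a log2 ratio of CPM of 0.0817 ± 0.00296 (SD, n = 3), 0.0861 ± 0.00667 (n = 4), 0.0662 ± 0.000272 (n = 2) and 0.0800 ± 0.00846 (n = 2) in the 1000-fold, 100-fold, LGR and legacy screens. The median guide against an olfactory receptor (1819 guides, 362 genes), genes that K562 cells do not use, moved by 0.0911, 0.0818, 0.0730 and 0.0711, and the median of all targeting guides by 0.0550, 0.0278, 0.0190 and 0.0225. The controls thus lay above the targeting guides in every screen, and their distance from the olfactory receptor guides was between −0.0094 and 0.00889. Scaling by TMM, which centres each sample on the bulk of the guides, lowered the controls' shifts to 0.0287, 0.0655, 0.0586 and 0.0712.

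The spread of the control guides around that median followed coverage. The robust SD of the log2 ratio was 0.181 ± 0.00753 (SD, n = 3) at 1000-fold and 0.389 ± 0.0248 (n = 4) at 100-fold in the survival screens, and 0.375 ± 0.0112 (n = 2) and 0.352 ± 0.00572 (n = 2) in the LGR and legacy dasatinib screens without drug. The olfactory receptor guides spread by 0.185, 0.394, 0.398 and 0.324. The ratio of control to olfactory spread was therefore between 0.943 and 1.09. Between Tf samples of one screen, the control ratios had a robust SD of 0.162 to 0.166 at 1000-fold and 0.469 to 0.556 at 100-fold, where counting noise gives 0.0678 to 0.0689 and 0.0973 to 0.10002.

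Tested guide by guide, a small number of control guides moved during growth. A guide is called when edgeR's quasi-likelihood test, run over all guides of the comparison, gives it a Benjamini-Hochberg adjusted p under 0.05. The 1000-fold screen has a single T0 sample, whose spread was not measured and is taken from the 3 Tf samples, in this and every value below. There 24 of 1890 controls tested (1.27%) fell, against 9.07% of all guides, and 27 (1.43%) rose, against 1.08% of all guides. In the 100-fold screen 6 of 1889 controls fell, against 5.68% of all guides, and 1 rose, against 0.0437%. In the DMSO samples of the LGR library 20 of 1890 controls fell (all guides, 7.42%) and 12 rose (all guides, 0.535%), and in those of the legacy library 22 of 1866 fell (all guides, 6.88%) and 17 rose (all guides, 0.62%). The share of controls that fell was thus far under that of all guides in each screen, and the share that rose was near it or above it. Of the olfactory receptor guides 16, 5, 9 and 7 fell and 16, 3, 10 and 12 rose in the 4 screens. With an unadjusted p under 0.05 were 10.2%, 4.02%, 8.36% and 9.32% of the controls. The split between falls and rises moved with the scaling. Without TMM it was 21 and 65 at 1000-fold, and with each sample scaled to its control median it was 26 and 17 there, 25 and 4 in LGR and 26 and 13 in legacy. With so few samples the counts also moved with single libraries. Without T0 sample 1 or 2 of the 100-fold screen 2 and 1 controls were called in place of 7, and 11 without Tf sample 4. Without T0 sample A or B the LGR count went from 32 to 6 or 5 and the legacy count from 39 to 15 or 20, and without DMSO sample 1 or 2 to 117 or 113 for LGR and 100 or 95 for legacy.

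Most control guides that fell in one library also fell in the other, and none rose in both, as was nearly so over all guides. Of 20 controls that fell in LGR and 22 that fell in legacy, 15 fell in both, which is 75.0% of the first list and 68.2% of the second, with no sample shared between the screens. Over all guides the shared falls were 70.7% of the LGR list and 77.2% of the legacy list, so the overlap of the controls was near that of all guides. Of the guides tested in both libraries, 0.804% of controls and 5.31% of all guides were called lower in both. Of 12 controls that rose in LGR and 17 that rose in legacy, 0 rose in both, against 0.00492% of all guides (5 shared among 551 and 630). In the other library, 3 of the 12 and 14 of the 17 had a ratio above 0. The shared 15 remained 14 or 15 under DESeq2, without TMM scaling, with scaling to the control median and at an adjusted p under 0.10, and each of the calls found there was lower. Without LGR T0 sample A or B they numbered 5, and without legacy T0 sample A or B 8, but all 15 kept a ratio below 0 in each of these fits. Without LGR DMSO sample 1, 16 controls were shared, 2 of them higher. Across the 1866 controls tested in both, the log2 ratios had a Pearson correlation of 0.387 and a Spearman correlation of 0.0275, a description over guides that were grown in the same cell line under the same procedure.

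The survival screens had no part in choosing these 15 guides, and all 15 had a ratio below 0 in both of them. In the 1000-fold screen 13 of the 15 fell and in the 100-fold screen 4 of the 15, with a median log2 ratio of −0.85 and −1.07. In the screens that chose them the medians were −2.34 in LGR and −2.07 in legacy. Over all guides, 5398 were called lower in both libraries and 3871 of these in all 4 screens, against 15 and 4 of the controls. The shared controls were thus called in all 4 screens less often than the shared guides of the whole library. In CPM, the Tf samples lay below T0 without overlap for 14 of the 15 guides at 1000-fold and for 12 of the 15 at 100-fold. The 1000-fold screen has a single T0 sample, and the same count was not made over all guides. These 2 counts are therefore a description and cannot be weighed against a background. Set against the titration samples at 100-fold coverage, the T0 samples of the dasatinib screens were lower for 10 of the 15 guides in LGR and 11 of the 15 in legacy, with medians of −0.12 and −0.31 on the log2 scale against 0.0271 and 0.0193 over all controls. In the survival screens the T0 samples were lower for 6 of the 15 guides at 1000-fold and 5 of the 15 at 100-fold, with medians of 0.0921 and 0.0391. Non-targeting_01546, singled out after its values were seen, moved least in the survival screens, with log2 ratios of −0.06 ± 0.14 (SE, edgeR adjusted p = 0.89) at 1000-fold and −0.12 ± 0.35 (edgeR adjusted p = 0.99) at 100-fold.

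Called lower in all 4 screens were 4 control guides, non-targeting_00342, non-targeting_00379, non-targeting_00692 and non-targeting_01348, and called lower in 3 screens were another 11. These are 0.212% and 0.582% of the controls tested, against 3.76% and 2.48% of all guides. For non-targeting_00692, the 1000-fold screen had 7.16 CPM at T0 and 1.10, 1.15 and 1.59 at Tf, a log2 change of −2.53 ± 0.29 (SE, edgeR adjusted p = 6.69e-10, with the spread from the Tf samples alone). At 100-fold it had 7.53 and 7.42 CPM at T0 and 0.891, 0.896, 1.481 and 0.933 at Tf. In the LGR dasatinib screen it had 3.73 and 3.51 CPM at T0 and 0.422 and 0.174 in DMSO, and in the legacy screen 5.45 and 4.76 at T0 and 0.516 and 1.80 in DMSO. Every grown sample of this guide lay below every T0 sample of its screen. Over the 4 screens in one fit, with screen as a factor, it fell by 2.72 on the log2 scale (SE 0.30, adjusted p = 8.79e-09).

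Non-targeting_00342 fell in the same way. It had 8.86 CPM at T0 and 0.814, 1.57 and 1.47 at Tf in the 1000-fold screen, and 7.36 and 10.3 at T0 and 0, 0.988, 1.15 and 3.16 at Tf in the 100-fold screen. In the dasatinib screens it went from 4.43 and 4.56 at T0 to 0.542 and 1.27 in DMSO with the LGR library and from 5.94 and 4.48 to 1.37 and 0 with the legacy library. The groups did not overlap in any of the 4 screens, and the log2 changes were −2.84 ± 0.26, −2.75 ± 0.74, −2.30 ± 0.51 and −2.91 ± 0.66 (SE). Non-targeting_00379 changed by −2.38 ± 0.26, −2.77 ± 0.50, −2.49 ± 0.65 and −1.84 ± 0.41. Its 100-fold Tf samples held 0.812, 0.896, 1.79 and 0.787 CPM, against 6.36 and 8.12 at T0. For non-targeting_00692, non-targeting_00342 and non-targeting_00379 the test of a difference between libraries did not pass (edgeR interaction adjusted p = 0.63, 0.92 and 0.83).

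Some of the other shared guides had larger changes in the dasatinib screens, which ran for 9 days in place of 7, than in the survival screens. The difference was not tested. The guides were chosen by their falls in the dasatinib screens, so larger falls there are partly built into the choice. Non-targeting_01348 had 69 and 98 counts at T0 and 1 and 0 in DMSO with LGR, a 150-fold fall with a 95% exact counting interval of 26.5 to 5946, and 14 and 31 counts at T0 and 0 and 0 in DMSO with legacy, at least 14.3-fold lower (3 counts over both samples taken as the floor). In the 1000-fold screen the same guide went from 6.64 CPM to 1.39, 1.20 and 1.70. Non-targeting_01330 went from 6.60 CPM to 4.26, 4.16 and 3.59 there (log2 change −0.77 ± 0.18), but from 5.09 and 5.01 to 1.20 and 0.289 with LGR and from 11.98 and 10.98 to 1.43 and 2.32 with legacy (−2.76 ± 0.53 and −2.62 ± 0.33). Non-targeting_01669 had log2 changes of −1.005 ± 0.18, −3.23 ± 0.48 and −2.07 ± 0.23 in the 1000-fold, LGR and legacy screens, and non-targeting_01600 of −0.77 ± 0.17, −2.34 ± 0.36 and −1.92 ± 0.47. Non-targeting_01345 changed by −3.01 ± 0.49, −3.73 ± 0.66 and −4.82 ± 0.62 in these 3 screens, and by −2.59 ± 0.82 at 100-fold survival, where it was not called. Non-targeting_01216 changed by −1.81 ± 0.23, −2.46 ± 0.41 and −2.06 ± 0.29, and by −0.92 ± 0.48 at 100-fold survival, also not called. Non-targeting_00270 had changes of −3.88 ± 0.56 in the legacy and −1.483 ± 0.38 in the LGR library, and the difference did not pass the test (edgeR interaction adjusted p = 0.20). At the same 100-fold coverage, the survival screen gave log2 changes of −1.17 ± 0.46, −1.34 ± 0.48 and −1.07 ± 0.32 for non-targeting_01330, non-targeting_01669 and non-targeting_01600, none of them called. Duration and transduction differ together between the survival and the dasatinib screens. They cannot be told apart from each other or from the choice of guides.

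In the fit over all 4 growth screens, 23 of 1890 controls fell, against 9.71% of all guides, and 26 rose, against 1.38% of all guides. Of those that fell, 22 had a ratio below 0 in every screen, and of those that rose, 21 had a ratio above 0 in every screen. The fit that called them used these same screens, so the shared signs are no independent check. With samples scaled to the control median 24 fell and 10 rose. Non-targeting_01116 was lower by 2.40 ± 0.23 in the 1000-fold, 2.36 ± 0.46 in the 100-fold and 2.70 ± 0.64 in the LGR screen on the log2 scale, all 3 called, and its legacy ratio of −1.68 ± 1.15 was not called, at T0 levels of only 1.13 and 0.729 CPM. The rises were smaller than the falls. The 10 largest among those above 0 in every screen, non-targeting_01439, non-targeting_01051, non-targeting_01524, non-targeting_00444, non-targeting_00707, non-targeting_00869, non-targeting_00806, non-targeting_00835, non-targeting_00380 and non-targeting_00743, changed by between 0.39 and 0.58 on the log2 scale. Non-targeting_00707, for example, had 6.24 CPM at T0 and 8.16, 7.26 and 8.72 at Tf in the 1000-fold screen, 5.64 and 6.72 at T0 and 9.05, 6.68, 10.3 and 7.85 at 100-fold, 9.07 and 7.29 at T0 and 14.5 and 11.5 in DMSO with LGR, and 15.7 and 16.5 at T0 and 25.7 and 21.5 in DMSO with legacy. Its groups overlapped at 100-fold alone, and it rose by 0.51 ± 0.11 (adjusted p = 0.00072).

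Most controls that rose were called in a single screen. In the 1000-fold screen the 3 largest rises were those of non-targeting_00400, non-targeting_00757 and non-targeting_00224, with log2 changes of 0.65 ± 0.15, 0.64 ± 0.15 and 0.56 ± 0.15, and none of the 3 was called in another screen. Of the 27 controls that rose there, 15 had a ratio above 0 at 100-fold, 18 in LGR and 15 in legacy. Of the 24 that fell there, 21, 20 and 22 had a ratio below 0. At 100-fold non-targeting_01174 alone rose, by 0.88 ± 0.22, with −0.01 ± 0.12 at 1000-fold. In LGR non-targeting_01680, non-targeting_00155 and non-targeting_01386 rose by 1.22 ± 0.33, 0.97 ± 0.24 and 0.96 ± 0.29, and their legacy ratios were −0.36 ± 0.25, −0.15 ± 0.20 and 0.11 ± 0.24. In legacy non-targeting_00436, non-targeting_01245 and non-targeting_00743 rose by 1.72 ± 0.25, 1.05 ± 0.25 and 0.995 ± 0.28, against 0.30 ± 0.30, 0.18 ± 0.32 and 0.31 ± 0.24 in LGR. Over the 4 growth screens together, 91 controls (4.81%) were called at least once, against 13.0% of all guides. Called higher in a single screen were 55 (2.91%), against 2.21% of all guides, and in 2 screens 1, against 0.032% of all guides (non-targeting_00307, named after its values were seen). By the edgeR test 0 controls were called in opposite directions.

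A difference between libraries was found for 2 controls, a smaller share than over all guides. In the test of library by growth, 2 of 1890 controls passed, non-targeting_01802 and non-targeting_01496, which were named after their values were seen, against 0.144% of all guides, and 129 controls had an unadjusted p under 0.05. Non-targeting_01802 had 1.89 and 1.63 CPM at T0 and 0.0573 and 0.0581 in DMSO with the legacy library, 64 counts against 2, a 30.5-fold fall with a 95% exact counting interval of 8.11 to 257. With LGR it had 6.80 and 5.90 CPM at T0 and 10.7 and 6.37 in DMSO (log2 ratio 0.41 ± 0.29), and the fitted difference was −5.15 ± 0.86 (adjusted p = 0.013). Non-targeting_01496 had 3.13 and 5.83 CPM at T0 and 1.09 and 0.813 in DMSO with legacy, 8.37 and 8.24 at T0 and 12.8 and 8.62 in DMSO with LGR, and a difference of −2.55 ± 0.53 (adjusted p = 0.047). Both numbers lie above 1200, where the legacy plasmid was more uneven than at lower numbers. Non-targeting_01802 held 1.90 CPM in the legacy plasmid against 6.08 in the LGR plasmid. A link between the plasmid levels and the difference in growth was not tested.

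Under dasatinib, the control guides spread far more than under DMSO while their median stayed close to that of all targeting guides. The robust SD of the log2 ratio of DASA to DMSO over the controls was 0.799 and 0.757 in the 2 LGR samples and 0.665 and 0.639 in the 2 legacy samples, against 0.368 to 0.383 and 0.348 to 0.356 for DMSO against T0. The olfactory receptor guides spread by 0.750 and 0.612 on average in LGR and legacy. The 2 DASA samples of a library differed from each other by a robust SD of 0.969 for LGR and 0.782 for legacy, where counting noise gives 0.191 and 0.164, and the 2 DMSO samples by 0.461 and 0.405. The controls' share of counts was 1.66 and 1.64% in DASA against 1.65 and 1.65% in DMSO for LGR, and 2.01 and 1.96% against 1.98 and 1.96% for legacy. The groups overlapped in both libraries (exact permutation p = 1.0 and 0.67). The median control ratio was −0.18 and −0.12 on the scale of library totals, close to the −0.17 and −0.13 of all targeting guides, and −0.0213 and 0.00174 after TMM scaling. Against the olfactory receptor guides the controls lay 0.0525 higher in LGR (0.0441 and 0.0609 in the 2 samples) and 0.0300 higher in legacy, where the 2 samples differed in sign (−0.0148 and 0.0748). The DASA spread was larger for rarer guides, for which counting noise is also larger. Among legacy controls binned by their T0 count, which this ratio does not use, the robust SD in the 2 DASA samples was 1.20 and 1.41 at 10 to 50 counts (122 guides), 0.812 and 0.847 at 50 to 100 (294 guides), 0.708 and 0.714 at 100 to 200 (716 guides) and 0.560 and 0.504 above 200 (720 guides).

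By the edgeR test, 0 of 1890 controls were called in the LGR dasatinib comparison, against 0.00393% of all guides lower and 0.0954% higher, although 210 had an unadjusted p under 0.05, and DESeq2 called 31. In the legacy library 0 of 1862 controls were called lower, against 0.0349% of all guides (3 by DESeq2), and 9 rose, against 0.572% of all guides. By DESeq2 36 were called higher there, and 33 with a replicate block. With 0 controls called in LGR, none could be called in both libraries, where 0.0622% of all guides were called the same way. The counts rested on the spread between the 2 samples of an arm. Without DASA sample 1 or 2, 385 or 379 LGR controls and 288 or 295 legacy controls were called, with the lone DASA sample taken to vary like DMSO. These are 20.4 and 20.1% of LGR controls, against 21.1 and 20.2% of all guides, and 15.5 and 15.9% of legacy controls, against 15.9 and 15.6% of all guides. Without DMSO sample 1 or 2 the legacy count was 2. No control passed the test of library by dasatinib by edgeR (0.00293% of all guides did, and 187 controls had an unadjusted p under 0.05).

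The 3 largest legacy rises were those of non-targeting_01599, non-targeting_01330 and non-targeting_00265. Non-targeting_01599 had 1.72 and 2.15 CPM in DMSO and 251 and 51.7 in DASA, where it was the highest control of the first sample at 23.6 times the control mean (log2 change 6.41 ± 0.68, adjusted p = 0.0042). With LGR it had 14.9 and 15.9 CPM in DMSO and 18.3 and 12.9 in DASA (0.17 ± 0.38, adjusted p = 0.89). The rise was thus seen in one library only among the samples here, in which the guide was rare (2.23 CPM in the legacy plasmid and 12.03 in the LGR plasmid), and the test of the difference did not pass (edgeR interaction adjusted p = 0.0845). Of the 9 controls that rose with legacy, 6 had a ratio above 0 with LGR.

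With both libraries in one fit, 0 of 1890 controls fell, against 0.209% of all guides (4 by DESeq2), and 8 rose, against 0.868% of all guides. The share of controls called was thus below that of all guides in each direction. All 8 had a ratio above 0 in both libraries. The fit that called them used these same samples, so the shared sign is no independent check. The count was 3 without LGR DMSO sample 1 or 2, 2 without legacy DMSO sample 1 or 2, and 28 by DESeq2. Non-targeting_00905 had 4.88 and 7.23 CPM in DMSO and 20.6 and 14.6 in DASA with LGR, and 13.5 and 8.48 in DMSO and 44.2 and 38.9 in DASA with legacy. Its T0 samples held 6.35, 6.35, 8.96 and 10.4 CPM, and it rose by 1.85 ± 0.28 (adjusted p = 0.0039). Non-targeting_00344 had 1.57 and 6.14 CPM in DMSO and 10.8 and 26.1 in DASA with LGR, and 6.19 and 4.53 in DMSO and 32.0 and 20.6 in DASA with legacy (2.40 ± 0.41, adjusted p = 0.0084). Non-targeting_00984 had 13.8 and 11.3 CPM in DMSO and 79.2 and 24.2 in DASA with LGR, and 4.47 and 11.4 against 21.7 and 20.8 with legacy (1.86 ± 0.39). In these 3 guides every DASA sample lay above every DMSO sample of the same library, and the growth fit over 4 screens called none of them. The same DASA and DMSO samples were used to call these guides, so their separation is a description only. Non-targeting_00647 had the smallest rise, at 1.18 ± 0.26 (adjusted p = 0.046).

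The other 4 of the 8 were guides that fell during growth, non-targeting_01330, non-targeting_00265, non-targeting_01669 and non-targeting_01336. Non-targeting_01330 had 1.20 and 0.289 CPM in DMSO and 1.81 and 2.96 in DASA with LGR, below its T0 levels of 5.09 and 5.01, and 1.43 and 2.32 in DMSO and 28.5 and 20.2 in DASA with legacy, above its T0 levels of 11.98 and 10.98. Non-targeting_01669 had 1.08 and 0.347 against 4.24 and 4.99 with LGR and 4.47 and 5.29 against 13.5 and 12.5 with legacy, in each case between DMSO and T0. Of the 15 guides called lower in both libraries during growth, 12 of 15 in LGR and 12 of 14 tested in legacy had a DASA to DMSO ratio above 0, with medians of 1.33 and 1.40 on the log2 scale, and 0 and 2 of them were called. These 2 comparisons share the DMSO samples, so a guide that is low in DMSO is low in the first and high in the second, and their values are given side by side without a test.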

How the data were processed

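The authors aligned reads to the guide libraries and deposited counts per guide, 1 table per sample, and the submitters' processing notes name bcl2fastq and hg19. Counts were used as deposited, and 0 columns were left unmapped. The HiSeq plasmids were grouped by title, since another label contradicts it. Guides with at least 10 counts in at least 1 sample of a comparison were tested with edgeR 4.0.16 in R 4.3.3 (quasi-likelihood test, TMM scaling, Benjamini-Hochberg adjustment over all guides tested, threshold 0.05). DESeq2 1.42.0 was an alternative. The script was tested on simulated data. Shifts and spreads are medians and robust SDs of log2 ratios of CPM with 1 count added, over guides with at least 50 counts. The spreads binned by T0 count also take in guides from 10 counts upward. Depth differs between samples, and counting intervals cover counting error only, since the reads carry no molecular identifiers.

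Members and lists were chosen with earlier results of these data known. Named guides are those called the same way in both libraries (at most 10), up to 10 in each direction in the combined fits with the same sign in every screen, 3 in each direction per comparison, and the 3 highest and 3 lowest per plasmid. Other scalings, filters, pseudocounts, a replicate block and leaving out each sample were tried. The 95/5 skew from 50-fold upward, and DESeq2 and left-out samples for the count shared by both libraries, were chosen after seeing the data.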

Additional observations from a re-analysis of the deposited data

Results flagged for a closer look

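In the 100-fold survival screen, 5 of 41 measures had a Tf sample far from the other 3, where chance flags about 1 in 20 groups. The 41 measures were the control share, shift and spread and the CPM of each named control guide. All 5 flagged were named guides. Non-targeting_00692 held 1.481 CPM in Tf sample 3 against 0.891 to 0.933 in the others. Non-targeting_00379 held 1.789 CPM in Tf sample 3 against 0.787 to 0.896. Non-targeting_00905 held 8.687 CPM in Tf sample 2 against 6.77 to 6.93. Non-targeting_01386 held 2.904 CPM in Tf sample 3 against 5.25 to 5.71. Non-targeting_00436 held 12.93 CPM in Tf sample 4 against 6.71 to 7.72.

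Between libraries, the change during growth differed for non-targeting_01496, by −2.5517 on the log2 scale (legacy minus LGR, edgeR interaction adjusted p = 0.0466), and for non-targeting_01802, by −5.1525 (edgeR interaction adjusted p = 0.0126). These are 2 of 1890 controls, and 0.144% of all guides passed the same test.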

How the results depend on the processing

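Of 256 alternative values, 179 were classed as the same, 72 as moved and 5 as reversed, and the cause was not tested. Counts of called guides were classed by their ratio to the main count, and shares of counts by sign alone. Shifts and spreads were the same if they moved by less than the spread between samples, and the titration if it kept its side of the threshold. Plasmid alternatives were all classed as moved. By DESeq2, 31 controls were called for dasatinib in LGR, 39 in legacy, 28 in both libraries together and 22 in the 100-fold screen. Without TMM 86 were called at 1000-fold, and without the legacy screen 0 in the combined dasatinib fit. Same-numbered replicates had deviations correlated at 0.00169, −0.00132 and 0.00184 in LGR, legacy and 100-fold, so they share only a number. With a replicate block, 7, 35 and 18 controls were called there, 6 in the combined dasatinib fit, and the titration p was 0.00781 (exact permutation test, the smallest it allows).

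Leaving out each sample in turn gave 0 to 385 controls called for dasatinib in LGR, 2 to 295 in legacy and 2 to 9 in both, 5 to 117 for growth in LGR, 15 to 100 in legacy, 1 to 11 at 100-fold and 5 to 18 shared by both libraries. The shift ranged from 0.0758 to 0.0890 at 100-fold, 0.0639 to 0.0693 and 0.0635 to 0.0883 for growth in LGR and legacy, and −0.13 to −0.11 for dasatinib in legacy. The spread ranged from 0.377 to 0.424 at 100-fold, 0.368 to 0.408 and 0.348 to 0.389 for growth, and 0.757 to 0.824 and 0.648 to 0.702 for dasatinib. The dasatinib difference in share of counts ranged from −0.00951 to 0.0081 percentage points in LGR and from −0.00537 to 0.0444 in legacy, and was 0.00799 in LGR without the 100 highest guides.

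TMM scaling gave shifts of 0.0287, 0.0655, 0.0586 and 0.0712 for growth at 1000-fold, 100-fold, LGR and legacy, and −0.0213 and 0.00174 for dasatinib in LGR and legacy. As a plain SD the 6 spreads were 0.252, 0.458, 0.468, 0.473, 0.830 and 0.767. With 10 counts added, the spread was 0.353 and 0.332 for growth in LGR and legacy and 0.721 and 0.606 for dasatinib, and the LGR growth shift was 0.0711. Over all controls above 0, that shift was 0.0670, and the legacy spread was 0.365 for growth and 0.681 for dasatinib. The ratio of legacy to LGR plasmid skew was 1.57 for CRISPRa, 1.67 with the HiSeq counts of the LGR plasmid and 1.80 at 95/5 percentiles, and for CRISPRi it was 3.34, and 5.90 at 95/5 percentiles. In the titration, 95/5 percentiles gave no value over all coverages, since the 5th percentile was 0 in the legacy 10-fold samples, and 4.81 as a ratio from 50-fold upward. With 2 samples in most arms, depth and duplicate number limit which single guides can be called.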
